A study of Mus musculus with 56 samples.

Results

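Gene expression in the anterior hypothalamus was compared between day-fed and night-fed female mice in the early dark period, at zeitgeber time (ZT, hours after lights on) 16. All 4 mice on daytime-restricted feeding (DRF) and all 4 mice on nighttime-restricted feeding (NRF) that were labelled ZT16 were taken, 8 of the 56 mice in the series. The mice were wild-type C57BL/6J females aged 9 weeks. Food was given between ZT0 and ZT12 to DRF mice and between ZT12 and ZT24 to NRF mice, for 7 days under an equal light and dark cycle. At ZT16, therefore, NRF mice were 4 h into their food access and DRF mice 4 h past the end of theirs. At ZT4 the positions were exchanged.

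The anterior hypothalamus holds the suprachiasmatic nucleus, the light-entrained pacemaker of the body, and nuclei that set hormone release, body temperature and food intake. In each cell, CLOCK and BMAL1 (encoded by Arntl) drive the Period and Cryptochrome genes, whose proteins repress them. The time of feeding is a cue that resets clocks in many tissues outside the pacemaker. Cholesterol synthesis, glucocorticoid release, body temperature and hunger peptides also follow the feeding schedule.

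Expression is given as CPM (read counts scaled to a common library size) recovered from the deposited values, and differences as DRF minus NRF on the scale of log2(CPM + 1), which understates the change of genes with few reads. The normalized library size at ZT16 was 30276061 to 34493347 reads per mouse, and the largest of all 56 was DRF replicate 4. DRF replicates 3 and 4 stood apart from the other mice before any comparison of the regimens. Their expression followed the GC content of the transcripts, with slopes of 0.33 and 0.47 on the log2 scale per 10 percentage points of GC. In the other 54 mice the slope was between -0.14 and 0.15. In the decile of genes with the lowest GC content (median 40.7%), the median of DRF replicate 3 was 0.49 below the NRF mean and that of DRF replicate 4 was 0.72 below, on the log2 scale. In the decile with the highest GC content (median 59.7%), both were above it, by 0.18 and 0.25. DRF replicates 1 and 2 differed from the NRF mean by 0.032 and 0.033 in the lowest decile and by -0.027 and -0.019 in the highest. Correlations across genes reached down to 0.983 with these 2 libraries and to 0.994 among the other 6. The median SD between mice of the same regimen was 0.152 in DRF and 0.0912 in NRF. The results are therefore also given without DRF replicates 3 and 4.

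**Figure D1:**
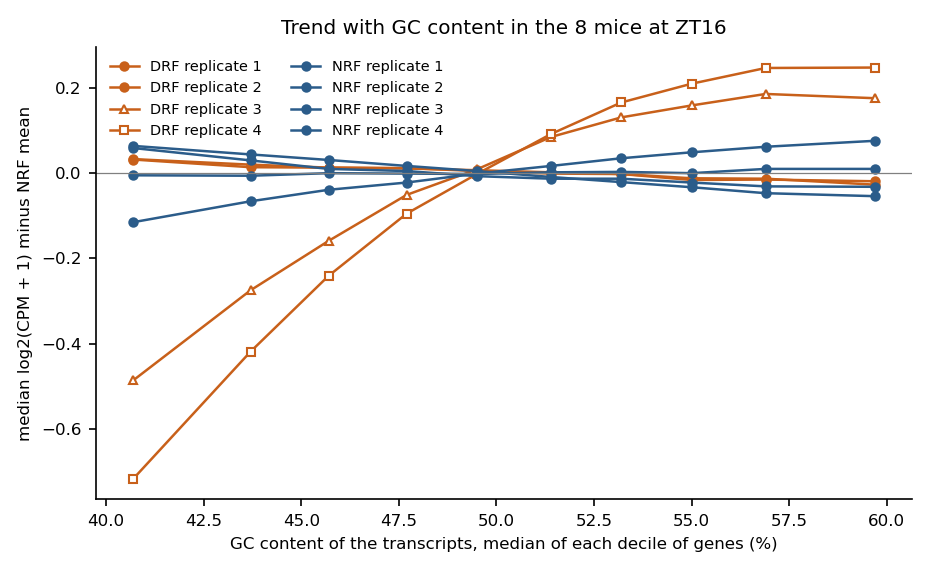
Median over the genes of each decile of GC content (x axis, %) of the log2(CPM + 1) of each mouse minus the mean of the 4 NRF mice (y axis), for the 8 mice at ZT16. DRF replicates 3 and 4 (open symbols) run from -0.49 and -0.72 in the lowest decile to 0.18 and 0.25 in the highest, and the other 6 mice stay near 0.

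With all 8 mice, 0 of the 16077 genes tested passed an adjusted p of 0.05 (0% of the genes, limma with Benjamini-Hochberg adjustment). At an unadjusted p under 0.05 there were 2207 genes, which is 13.7% of those tested, and the smallest adjusted p was 0.10. A test of the recovered reads that weights each value by its precision (voom) also called 0 genes, with 2250 at an unadjusted p under 0.05. All 4 DRF mice were above all 4 NRF mice in 773 genes (4.81%) and below all of them in 505 (3.14%). These shares are the background for the gene lists below. Without DRF replicates 3 and 4, and with the spread estimated from all other mice of the series, 18 genes were higher in DRF (0.112%) and 15 lower (0.0933%). All 33 differed in the same direction with all 8 mice, but these include the mice compared in that fit, so the shared direction is not separate support. The same 2 DRF and 4 NRF mice tested on their own spread gave 0 genes, with 2032 at an unadjusted p under 0.05. With the spread of all 56 mice in place of that of the 8, which gives DRF replicates 3 and 4 full weight, 1076 genes were higher and 2169 lower. The authors state that the mice were group housed during acclimation. Nothing says that mice of a feeding group were later kept apart from each other, so the p-values measure the spread between these mice. A cage shared within a regimen cannot be told apart from the regimen. In tissue RNA, fewer cells of a type and less RNA per cell cannot be told apart.

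The genes with the smallest unadjusted p among those without overlap between the groups missed the adjusted threshold with all 8 mice, and several passed it without DRF replicates 3 and 4. Gpr179, which encodes an orphan receptor of retinal bipolar cells (chr11:97332109-97352077, GRCm38), was at 11.3, 10.6, 12.6 and 11.8 CPM in DRF replicates 1 to 4. In NRF it was at 6.16, 5.62, 4.36 and 5.85 CPM, so every DRF value was well above every NRF value. The difference was 0.96 ± 0.11 (SE, log2 scale, n = 4 and 4; limma adjusted p = 0.10), and it was 0.89 without DRF replicates 3 and 4 (limma adjusted p = 0.0266).

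Col4a1 and Col4a2 encode the collagen IV chains of the basement membrane around blood vessels. Col4a2 was at 100.1, 114, 112 and 114 CPM in DRF and at 83.7, 77.1, 80.2 and 81.4 CPM in NRF. The 4 values of DRF lay above those of NRF, with a difference of 0.44 ± 0.06 (SE, log2 scale; limma adjusted p = 0.209). For Col4a1 the DRF mice had 58.3, 65.2, 60.3 and 63.4 CPM and the NRF mice 49.7, 45.4, 52.0 and 50.6 CPM. Its difference was 0.32 ± 0.07 (SE, log2 scale; limma adjusted p = 0.209), again without overlap. Both genes were higher in DRF without DRF replicates 3 and 4, Col4a2 by 0.41 and Col4a1 by 0.32 on the log2 scale (limma adjusted p = 0.0063 and 0.0266). The pair is transcribed in opposite directions from a shared start region. Their promoter windows in RefSeq (250 bases before to 50 bases after the start of each gene) overlap by 78 bases, shown in capitals because both genes were called higher in the same fit. The Col4a1 window is chr8:11312777-11313076 on the minus strand and the Col4a2 window chr8:11312555-11312854 on the plus strand (GRCm38.p6), each written 5′ to 3′.
Col4a1: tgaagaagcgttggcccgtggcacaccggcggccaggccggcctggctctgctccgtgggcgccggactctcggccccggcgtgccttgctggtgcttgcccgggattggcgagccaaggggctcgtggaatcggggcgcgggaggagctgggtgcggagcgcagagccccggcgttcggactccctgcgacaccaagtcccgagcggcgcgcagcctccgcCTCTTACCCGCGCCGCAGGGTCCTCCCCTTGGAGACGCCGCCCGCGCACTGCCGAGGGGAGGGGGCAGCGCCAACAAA
Col4a2: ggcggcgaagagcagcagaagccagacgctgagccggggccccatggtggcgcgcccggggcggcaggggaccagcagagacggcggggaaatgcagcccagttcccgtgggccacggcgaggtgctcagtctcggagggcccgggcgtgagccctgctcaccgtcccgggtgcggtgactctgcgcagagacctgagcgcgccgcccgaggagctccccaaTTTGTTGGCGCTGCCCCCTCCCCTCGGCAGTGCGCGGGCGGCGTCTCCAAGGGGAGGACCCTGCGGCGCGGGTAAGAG

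The other genes of this kind on the higher side were Serpina3n, an acute-phase protease inhibitor of reactive astrocytes, Plekhg4, Erfl, Nradd, Depp1, a target of FOXO transcription factors, Mfsd7a and Adamts2, a procollagen-processing protease. Their differences lay between 0.35 (Mfsd7a) and 0.75 (Adamts2) on the log2 scale, with limma adjusted p = 0.209 for each. Serpina3n stood at 77.1, 68.7, 68.9 and 73.1 CPM in DRF and at 54.5, 45.5, 39.3 and 44.7 CPM in NRF. Adamts2 passed the test without DRF replicates 3 and 4, at 0.86 (limma adjusted p = 0.029). For Serpina3n the difference without them was 0.66, which missed the threshold (limma adjusted p = 0.258).

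On the lower side the 10 genes were Nexn, Gm14444, Sbspon, Baz1a, Pcp4l1, Rbm3, Nrip3, Ednrb, Kctd6 and Shox2, with differences from -0.42 (Kctd6) to -2.15 (Shox2) and limma adjusted p = 0.209 for each. None of the 10 passed the test without DRF replicates 3 and 4, where the adjusted p was lowest for Ednrb (0.127 in limma). Ednrb encodes the endothelin B receptor of astrocytes and vessels. It was at 118, 113, 92.7 and 105.5 CPM in DRF and at 134, 146, 149 and 156 CPM in NRF. Shox2, a transcription factor of the thalamus, was at 5.70, 3.86, 3.70 and 6.32 CPM in DRF and at 13.0, 13.97, 40.6 and 48.8 CPM in NRF. The NRF mice themselves fell into a lower and a higher pair for this gene.

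**Figure D2:**
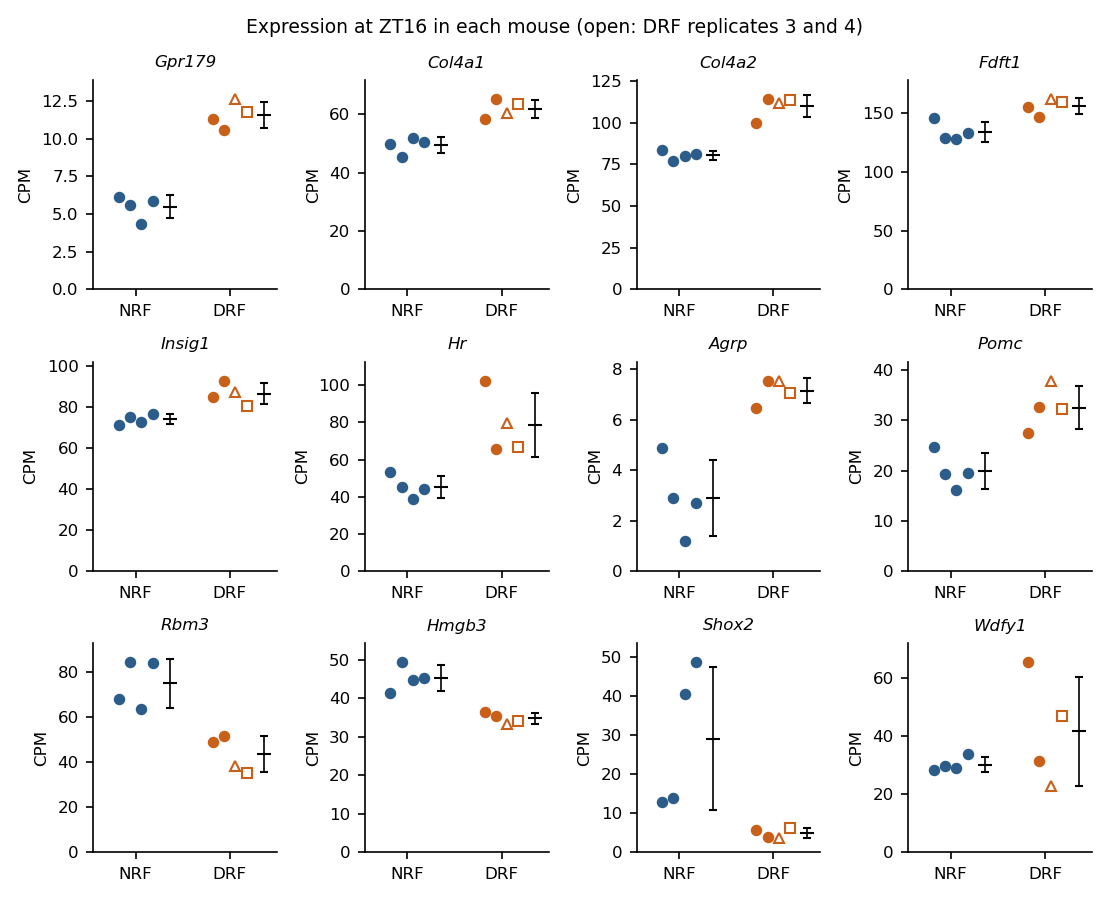
CPM at ZT16 (y axes, from 0) of 12 genes in each of the 4 NRF and 4 DRF mice, with the mean and SD beside the points. Open symbols are DRF replicates 3 and 4. All DRF values of Gpr179, Col4a1, Col4a2, Fdft1, Insig1, Hr, Agrp and Pomc are above all NRF values, those of Rbm3, Hmgb3 and Shox2 are below them, and those of Wdfy1 overlap.

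The calls without DRF replicates 3 and 4 rested on 2 DRF mice. Beside Gpr179, Col4a1, Col4a2 and Adamts2, the higher genes included Nup205, a subunit of the nuclear pore, Nrf1, an activator of mitochondrial genes, Inhba, a subunit of activin, and Hr. Nup205 was at 53.5, 53.6, 48.6 and 48.4 CPM in DRF and at 45.2, 44.2, 44.7 and 43.9 CPM in NRF, with a difference of 0.26 from replicates 1 and 2 (limma adjusted p = 0.019). Wdfy1 was called higher at 0.58 (limma adjusted p = 0.0154), but its DRF values of 65.3, 31.4, 22.7 and 46.9 CPM enclosed the NRF values of 28.2, 29.5, 28.9 and 33.9 CPM. The smallest p values on the lower side were those of Dbp, Bfsp2, Hmgb3, Eng and Gdf10. Hmgb3, a high-mobility-group chromatin protein, was at 36.5, 35.3, 33.4 and 33.98 CPM in DRF and at 41.3, 49.4, 44.9 and 45.3 CPM in NRF. Its difference was -0.37 with all 8 mice (limma adjusted p = 0.209) and -0.32 without DRF replicates 3 and 4 (limma adjusted p = 0.0266). For Eng, the endothelial co-receptor endoglin, the 2 DRF mice used had 22.2 and 26.1 CPM, below the NRF range of 30.6 to 35.7 CPM, while DRF replicates 3 and 4 had 29.97 and 32.7 CPM. Gdf10, a secreted growth factor, differed by -0.75 without the 2 libraries (limma adjusted p = 0.0266) and by -0.56 with them, where the groups overlapped.

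Of the 20 tested members of the 3 clock lists, 0 passed with all 8 mice, and 1, Dbp, passed without DRF replicates 3 and 4. Among the activators, Arntl was at 33.9, 37.3, 31.9 and 32.6 CPM in DRF and at 31.5, 29.4, 30.02 and 33.1 CPM in NRF, a difference of 0.13 ± 0.07 (SE, log2 scale; limma adjusted p = 0.403). Clock was at 98.9 and 99.7 CPM in DRF replicates 1 and 2 and at 62.6 and 58.2 CPM in replicates 3 and 4, against 88.3 to 99.1 CPM in NRF. Its difference of -0.31 with all 8 mice (limma adjusted p = 0.399) became 0.05 without those 2 libraries. Rora, which encodes a nuclear receptor that activates Arntl, was below the NRF range in all 4 DRF mice, at 59.4, 51.9, 38.1 and 34.6 CPM against 66.4, 71.5, 104.7 and 118 CPM. The difference of -0.95 ± 0.22 (SE, log2 scale; limma adjusted p = 0.226) was -0.65 without DRF replicates 3 and 4 (limma adjusted p = 0.368). Rorb differed by -0.41 and Npas2 by -0.17, both with overlapping groups.

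Of the 10 repressors, Per3 was the only one without overlap, at 71.7, 72.6, 73.7 and 76.7 CPM in DRF and at 67.0, 64.0, 68.7 and 65.9 CPM in NRF. Its difference was 0.15 ± 0.05 (SE, log2 scale; limma adjusted p = 0.341). Per1 differed by -0.003 and Per2 by 0.02 on the log2 scale with all 8 mice, with means of 65.6 and 46.0 CPM in DRF and 65.6 and 45.5 CPM in NRF. Cry1 differed by -0.22 and Cry2 by 0.01. Nr1d2, which encodes REV-ERB beta, was at 145, 152, 89.7 and 75.0 CPM in DRF, so its difference of -0.47 came with the split between the pairs of DRF mice and was -0.05 without replicates 3 and 4. Nr1d1, its paralog, was at 75.2, 75.0, 92.9 and 101.9 CPM in DRF and 94.9, 88.8, 104.1 and 86.6 CPM in NRF, a difference of -0.13 that was -0.31 without those 2 libraries (limma adjusted p = 0.11). Bhlhe40, Bhlhe41 and Ciart differed by -0.03, -0.17 and -0.02. The sum of the 10 repressors was 644.7 to 677.6 CPM in DRF and 692.3 to 741.1 CPM in NRF, without overlap. Of the 10, 3 had a positive difference.

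The output factors bind D-box elements in clock-controlled genes. Dbp was at 41.3, 41.5, 56.3 and 59.7 CPM in DRF and at 64.0, 60.8, 69.2 and 54.9 CPM in NRF. Both DRF mice with an ordinary GC trend were below the NRF range, and the other 2 lay within it. The difference was -0.33 ± 0.13 with all 8 mice (SE, log2 scale; limma adjusted p = 0.354) and -0.57 without DRF replicates 3 and 4, where Dbp was the gene with the smallest p of all (limma adjusted p = 0.00423). Hlf was lower in every DRF mouse, at 97.5, 99.3, 90.5 and 86.2 CPM against 111, 119, 144 and 146 CPM, with a difference of -0.47 (limma adjusted p = 0.209). Nfil3, the repressor of the same elements, was higher in every DRF mouse by 0.25 on average (log2 scale; limma adjusted p = 0.30). Tef differed by 0.10 with overlap.

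**Figure D3:**
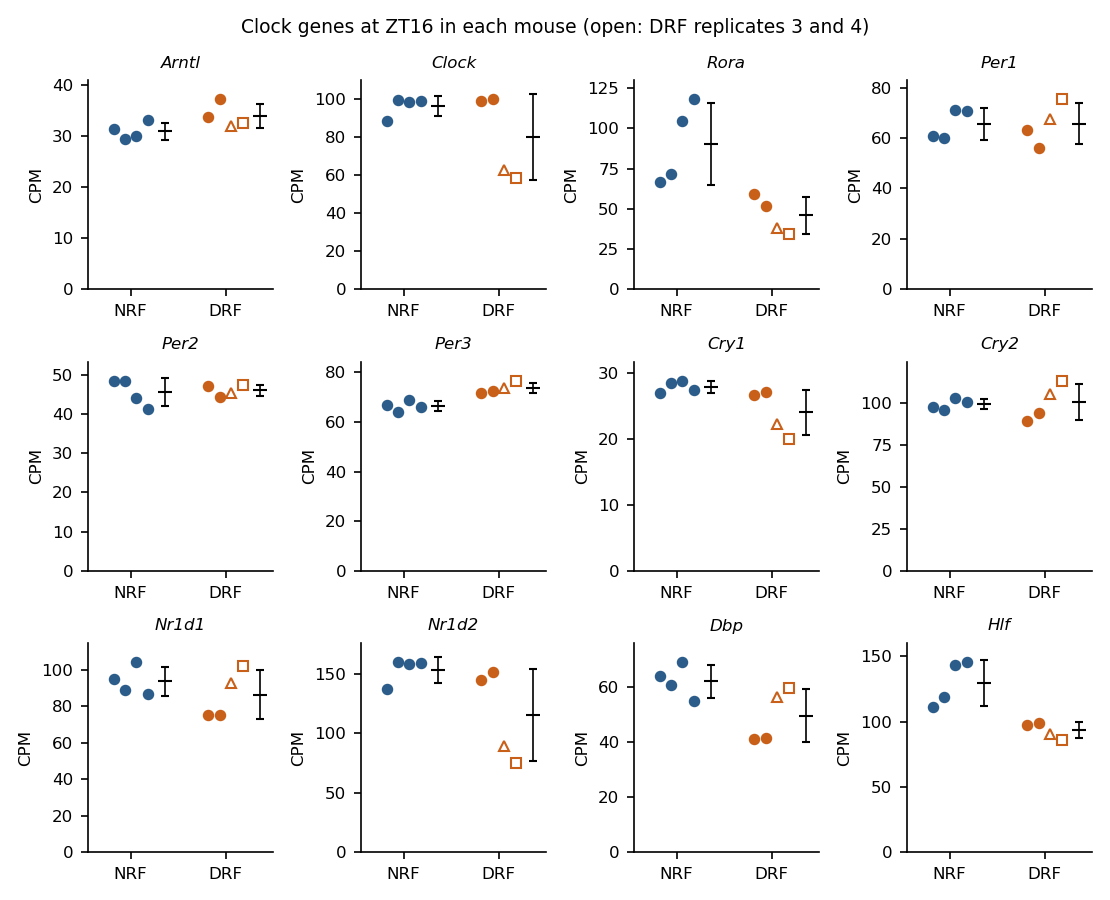
CPM at ZT16 (y axes, from 0) of 12 clock genes in each of the 4 NRF and 4 DRF mice, with the mean and SD beside the points. In Clock, Nr1d2 and Cry1 the open symbols (DRF replicates 3 and 4) lie below the other DRF mice, and in Dbp and Nr1d1 they lie above them.

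Several genes of sterol and fatty acid synthesis had values in DRF above those of NRF. Genes of this kind are activated by SREBP transcription factors when sterols in the cell are low. Of the 26 tested, all 4 DRF mice were above all NRF mice in 7 (26.9%, against 4.81% of all genes tested) and below them in 0, and 0 passed the adjusted threshold. The median difference over the list was 0.08, and 0.10 without DRF replicates 3 and 4, beside a median of 0.003 and 0.004 over all genes. With all 8 mice, 14 of the 26 had a positive difference, beside 8145 of the 16077 genes tested, so the list was not higher as a whole. Among the 7 were Insig1, the sterol-sensing retention protein of the SREBP pathway, Fdps, Fdft1 and Mvd, enzymes of cholesterol synthesis, and Acaca, the first enzyme of fatty acid synthesis. Insig1 was at 84.8, 92.7, 86.9 and 80.4 CPM in DRF and at 70.9, 75.1, 72.7 and 76.5 CPM in NRF, with a difference of 0.22 (limma adjusted p = 0.269). Fdft1 was at 155, 147, 162 and 159.6 CPM in DRF and at 146, 129, 128 and 133 CPM in NRF, with a difference of 0.22 (limma adjusted p = 0.274). Fdps differed by 0.29, Mvd by 0.28 and Acaca by 0.17 on the log2 scale. Without DRF replicates 3 and 4 the differences were 0.22 for Fdps, 0.14 for Mvd, 0.155 for Acaca, 0.26 for Insig1 and 0.17 for Fdft1.

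RefSeq promoter windows were at hand for 18 of the 26 genes (22 windows). The sterol regulatory element TCACNCCAC, searched on both strands, was found in 1 of the 18, Hmgcs1, and in 1.24% of all 32851 windows. The E-box CACGTG, a palindrome that SREBP and clock factors both can bind, was found in 4 of the 18, Dhcr7, Hsd17b7, Insig1 and Sc5d, and in 7.15% of all windows. The Insig1 window (chr5:28071162-28071461, plus strand, GRCm38.p6) is printed as the one of the 4 whose groups did not overlap, with the E-box in capitals.
Insig1: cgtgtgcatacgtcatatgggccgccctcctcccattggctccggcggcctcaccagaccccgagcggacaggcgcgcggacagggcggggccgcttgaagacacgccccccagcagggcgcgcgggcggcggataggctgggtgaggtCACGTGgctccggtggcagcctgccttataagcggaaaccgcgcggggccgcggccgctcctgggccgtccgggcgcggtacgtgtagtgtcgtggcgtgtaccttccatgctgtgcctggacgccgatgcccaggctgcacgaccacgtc

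Targets of the glucocorticoid receptor included 5 of 21 tested genes (23.8%) with all DRF mice above all NRF mice and 0 below. Over all genes tested the shares were 4.81% above and 3.14% below, and 0 of the 21 passed the test. The 5 above included Mt2, a metal-binding protein, Arrdc2, and Ddit4, an inhibitor of mTORC1. The others were Klf15, a transcription factor of amino acid breakdown, and Plin4, a lipid droplet coat protein. Mt2 was at 116, 113, 139 and 135 CPM in DRF and at 94.2, 104.1, 93.8 and 96.0 CPM in NRF, a difference of 0.37 (limma adjusted p = 0.226). Arrdc2 differed by 0.46, with 17.1, 11.9, 13.0 and 14.1 CPM in DRF and 9.08, 9.96, 10.7 and 9.84 CPM in NRF (limma adjusted p = 0.228). Without DRF replicates 3 and 4, Mt2 differed by 0.235 and Arrdc2 by 0.495 (limma adjusted p = 0.569 and 0.0755). The median of the list was 0.17 with all mice, 0.24 without DRF replicates 3 and 4 and 0.10 after the trends with GC content and transcript length were removed. The fasting and insulin-FOXO list had 3 of 22 members without overlap on the higher side (13.6%, against 4.81%) and 0 on the lower. The 3 were Angptl4, an inhibitor of lipoprotein lipase, Txnip and Pik3ip1. Amino acid degradation had 5 of 30 on the higher side (16.7%, against 4.81%) and 0 on the lower. Among the 5 were Prodh, Sds and Cbs, with differences of 0.31, 0.37 and 0.32. Without DRF replicates 3 and 4 these were 0.23, 0.37 and 0.20. The medians of the fasting and amino acid lists, 0.08 in both, were 0.03 without DRF replicates 3 and 4. With the trends removed they were -0.001 and 0.029. In either fit, 0 members of these 2 lists passed.

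Among 27 neuropeptides of the hypothalamus, 2 were above (7.41%) and 1 below (3.7%) the NRF range in all DRF mice. Over all genes tested these shares were 4.81% and 3.14%, and 0 of the 27 passed the adjusted threshold. The median of the list was 0.14 with all 8 mice and -0.02 without DRF replicates 3 and 4. Agrp and Pomc, the hunger and satiety peptides of the arcuate nucleus, were the 2 above. Agrp was at 6.48, 7.52, 7.55 and 7.04 CPM in DRF and at 4.87, 2.89, 1.19 and 2.68 CPM in NRF, a difference of 1.14 ± 0.24 (SE, log2 scale; limma adjusted p = 0.209). For Pomc the values were 27.4, 32.5, 37.9 and 32.3 CPM in DRF and 24.6, 19.4, 16.1 and 19.5 CPM in NRF, a difference of 0.69 ± 0.13 (SE, log2 scale; limma adjusted p = 0.209). Without DRF replicates 3 and 4 the differences were 1.116 and 0.576, far from the threshold (limma adjusted p = 0.419 and 0.648). Gnrh1, the releasing hormone of the gonadal axis, was at 3.78, 2.80, 1.90 and 3.97 CPM in DRF and at 5.97, 4.997, 5.22 and 6.14 CPM in NRF, a difference of -0.71. Crh, the releasing hormone of the adrenal axis, differed by -0.48, with overlapping groups. Of 25 receptors for feeding hormones and neuropeptides, 4 (16%) were above the NRF range in every DRF mouse: Crhr2, the receptor for urocortins, Mc3r, a melanocortin receptor, Sstr1 and Sstr2. Crhr2 differed by 0.42 (limma adjusted p = 0.228), Mc3r by 0.26 and Sstr1 by 0.23, and none was below.

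Rbm3, a messenger RNA-binding protein induced by mild cold, was at 49.1, 51.8, 38.3 and 35.3 CPM in DRF and at 68.0, 84.6, 63.7 and 84.1 CPM in NRF. All 4 DRF values lay below the NRF range, with a difference of -0.78 ± 0.14 (SE, log2 scale; limma adjusted p = 0.209) that was -0.55 without DRF replicates 3 and 4. Cirbp, the other cold-inducible protein listed, differed by -0.08 with overlap. Of 20 heat shock chaperones, 2 were higher in every DRF mouse (10%, against 4.81% of all genes tested). They were Hspa8 and Ahsa1, higher by 0.14 and 0.20, and by 0.085 and 0.10 without DRF replicates 3 and 4. Immediate early genes, the first transcripts of neuronal activity, had a median difference of -0.004 with all 8 mice, -0.16 without DRF replicates 3 and 4 and -0.11 after the trends with GC content and length were removed. Of the 22, 1 (4.55%, against 3.14% of all genes tested) was below in every DRF mouse (Ier5, -0.21) and 0 above. Endoplasmic reticulum chaperones, cytosolic ribosomal proteins and subunits of the respiratory chain and ATP synthase had 0 of 17, 0 of 83 and 0 of 76 members above. The number below was 0, 0 and 3 (3.95% of the 76, against 3.14% of all genes tested). The 3 were Atp5j, Atp5md and Atp5pb, with differences of -0.255, -0.37 and -0.25 with all 8 mice. Without DRF replicates 3 and 4 these were -0.15, -0.26 and -0.11. The median over the ribosomal proteins was 0.11 with all 8 mice and -0.05 without DRF replicates 3 and 4, and it was 0.02 and -0.11 for the respiratory chain and ATP synthase. In DRF replicates 1 and 2 alone, 39 of the 76 respiratory chain and ATP synthase genes were below the NRF range and 0 above, against 11.6% and 12.2% of all genes tested, and 12 of the 83 ribosomal protein genes were below and 1 above. Of 15 ATF4 and serine synthesis genes, Trib3 alone was above, and Atf4 itself was called lower without DRF replicates 3 and 4 (-0.29, limma adjusted p = 0.0266). The core Hippo pathway restrains YAP and TAZ. Of its 23 members, 1 (Sav1) was below in every DRF mouse (4.35%, against 3.14% of all genes tested) and 0 above. Sav1 differed by -0.25 with all 8 mice, -0.10 without DRF replicates 3 and 4 and -0.04 with GC content and length trends removed.

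**Figure D4:**
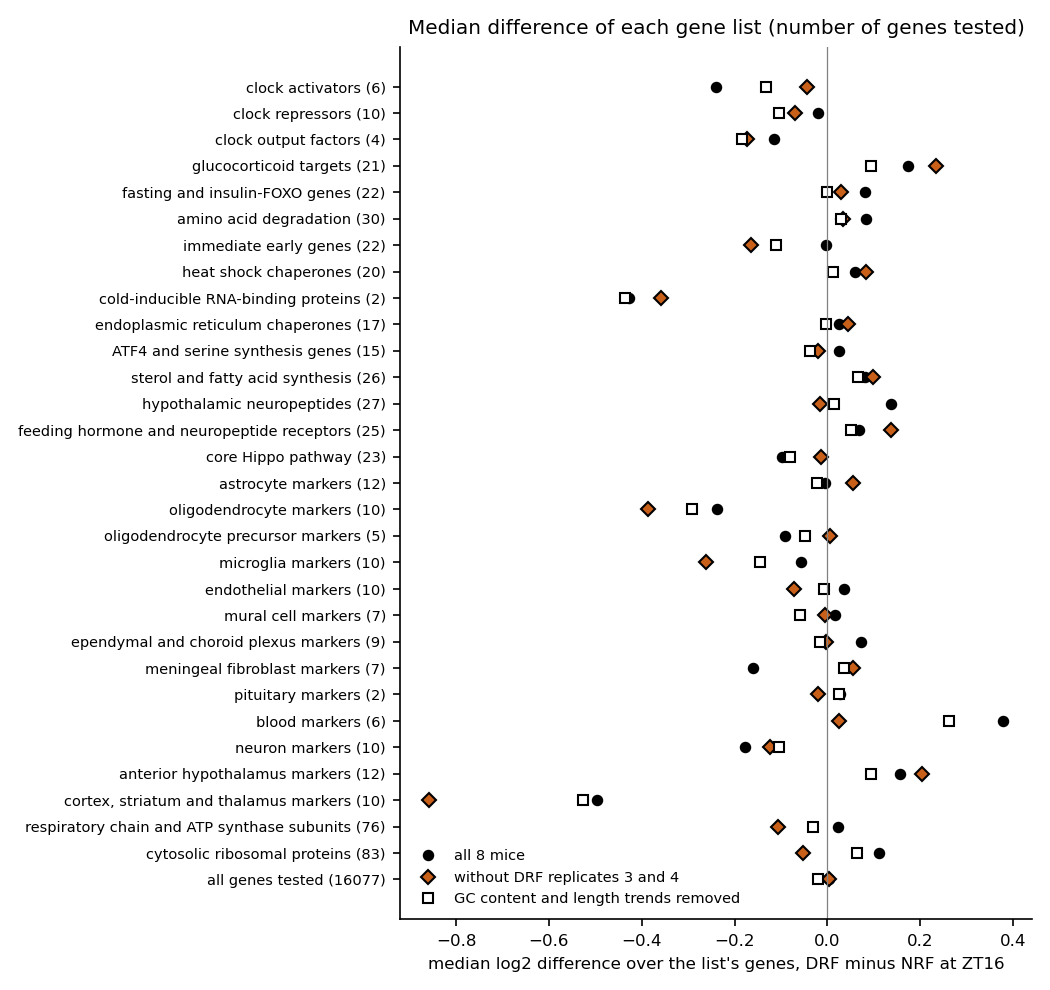
Median over each list's tested genes (number in parentheses) of the log2 difference, DRF minus NRF at ZT16 (x axis), with all 8 mice, without DRF replicates 3 and 4, and after removal of the trends with GC content and length. The cortex, striatum and thalamus markers lie lowest, at -0.50 with all mice, and all genes tested lie at 0.003.

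Of the markers of cell types and brain regions, 0 passed the test with all 8 mice, and 1, Lhx1, passed without DRF replicates 3 and 4. The part of cell type or region makeup in the results above was not tested. All 12 markers of the anterior hypothalamus were detected, the lowest at a mean of 3.84 CPM, and their summed level was 717 to 1009 CPM in DRF and 708 to 796 CPM in NRF. Of the 12, Lhx1, a transcription factor of the suprachiasmatic nucleus, was higher in DRF without replicates 3 and 4 (0.64, limma adjusted p = 0.0266), and Six3 was below the NRF range in every DRF mouse. Markers of cortex, striatum and thalamus summed to 114 to 225 CPM in DRF and 197 to 293 CPM in NRF, with 3 of 10 below in every DRF mouse (30%, against 3.14% of all genes) and a median difference of -0.50 that was -0.86 without DRF replicates 3 and 4. Tcf7l2, a thalamic transcription factor, was at 36.7, 29.8, 27.0 and 46.5 CPM in DRF and at 53.7, 57.4, 108.7 and 108.9 CPM in NRF. Slc17a7, the vesicular glutamate transporter of cortical neurons, was at 3.55, 1.05, 4.28 and 9.54 CPM in DRF and at 10.2, 10.6, 15.2 and 17.1 CPM in NRF. NRF replicates 3 and 4 were the highest for Tcf7l2, as for Shox2, Prkcd and Rora.

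Barhl1 and Lmx1a, which encode transcription factors of posterior hypothalamic neurons, were among the 18 genes called higher without DRF replicates 3 and 4 (limma adjusted p = 0.0335 and 0.0266). Lmx1b and Foxa1, 2 further transcription factors, missed the threshold in that fit (limma adjusted p = 0.0924 and 0.0755). With all 8 mice the limma adjusted p of the 4 genes was between 0.274 and 0.336. They were singled out after their values had been seen and belong to none of the lists. Lmx1a was at 2.90, 5.54, 5.02 and 0.348 CPM in DRF and at 0.941, 0.263, 0.0991 and 0.098 CPM in NRF. For all 4 genes, DRF replicates 1 to 3 were above every NRF mouse and DRF replicate 4 was within the NRF range. NRF replicate 1 was the highest NRF mouse for each of them. The part of these genes in the other results was not tested.

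Oligodendrocyte markers had lower values, with 3 of 10 below in every DRF mouse (Cldn11 and Mal among them), 0 of 10 with a positive difference, and a median of -0.24 that was -0.39 without DRF replicates 3 and 4. Their sum was 6079 to 7755 CPM in DRF and 7299 to 8930 CPM in NRF. Cldn11, the tight junction protein of myelin, was at 139, 137, 150.2 and 117 CPM in DRF and at 168, 204, 211 and 180.5 CPM in NRF. Microglia markers had 2 of 10 below, P2ry12 among them, and a median of -0.06 that was -0.26 without DRF replicates 3 and 4. Neuron markers had 2 of 10 below (20%, against 3.14% of all genes tested), Snap25 and Syt1. Snap25 differed by -0.27 with all 8 mice, -0.12 without DRF replicates 3 and 4 and -0.04 with GC content and length trends removed. In the same order Syt1 differed by -0.36, -0.29 and -0.21, and the median of the list was -0.18, -0.12 and -0.10. The sum of the neuron markers was 4485 to 5280 CPM in DRF and 5356 to 5956 CPM in NRF, without overlap. Astrocyte markers (1 of 12 above), oligodendrocyte precursors (0 of 5 either way), endothelial (1 of 10 below) and mural cells (0 of 7), ependyma and choroid plexus (1 of 9 above) and meningeal fibroblasts (0 of 7) had at most 1 member without overlap. The summed endothelial markers were nonetheless lower in every DRF mouse, at 216.2 to 225.2 CPM against 227.5 to 245 CPM in NRF. So were the summed mural markers, at 149.6 to 160.7 CPM against 161.5 to 176.9 CPM. Of the single members, 6 of 10 endothelial and 5 of 7 mural markers had a positive difference. Blood markers summed to 324 to 1088 CPM in DRF and 240 to 482 CPM in NRF, and DRF replicate 3 was highest for Hba-a1 and Hbb-bs. Of the pituitary markers, only Lhb and Tshb passed the filter on low values, and their sum was 10.5 to 13.6 CPM in DRF and 10.9 to 13.7 CPM in NRF. With DRF replicates 1 and 2 alone against NRF, 12.2% of all genes were above and 11.6% below the NRF range, and 9 of the 10 oligodendrocyte markers and 8 of the 10 microglia markers were below.

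The difference at ZT16 was then compared with that at ZT4, where NRF mice rather than DRF mice were 4 h past their food access. With all 56 mice in the fit, 1252 genes (7.79%) differed between the 2 time points in their DRF minus NRF difference, 464 with a higher and 788 with a lower value at ZT16. Quantile normalization turned this split to 586 higher and 393 lower. With only the mice of ZT16 and ZT4 in the fit there were 37 genes, 27 higher and 10 lower, and on the deposited scale there were 811, 303 higher and 508 lower. Without DRF replicates 3 and 4 of ZT16 there were 72 (0.448%), and 65 of these passed in both fits. Of the 65, 39 were higher in DRF at ZT16 (by replicates 1 and 2) and lower at ZT4, and 24 the reverse. These genes were selected by this contrast on the same values, which favours opposite signs, so the opposite signs are not separate support. The count with 1 library left out was 198 without DRF replicate 3, 313 without DRF replicate 4, 3376 without DRF replicate 1 and 3275 without DRF replicate 2. It was 589, 627 and 606 without NRF replicates 2, 3 and 4. Counts from this test therefore depend on single libraries, and the genes named below passed both with all mice and without DRF replicates 3 and 4.

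Hr, which encodes the corepressor Hairless, a thyroid hormone target in brain, had the smallest p. At ZT16 it was at 103, 65.5, 79.8 and 66.5 CPM in DRF and at 53.1, 45.1, 38.6 and 44.2 CPM in NRF. At ZT4 the means were 23.0 ± 0.79 CPM in DRF and 40.0 ± 6.76 CPM in NRF (SD, n = 4). The difference was thus 0.77 at ZT16 and -0.76 at ZT4, and the contrast of 1.53 had a limma adjusted p of 3.7e-05, and of 0.000109 without the 2 libraries. Hexim1, the inhibitor of the elongation factor P-TEFb, went the other way, with a difference of -0.13 at ZT16 and 0.29 at ZT4 (contrast -0.43, limma adjusted p = 3.7e-05, and 0.000109 without them). Srsf5, a splicing factor, differed by 0.16 at ZT16 and -0.44 at ZT4 (limma adjusted p = 0.00031, and 0.00486 without them). Slc38a2, an amino acid transporter induced by amino acid shortage, had -0.41 and 0.51, a contrast of -0.92 (limma adjusted p = 0.00047, and 0.0226 without them). Without DRF replicates 3 and 4 the ZT16 difference of Slc38a2 was only -0.15 and its contrast -0.66. Hexa, a lysosomal enzyme, had 0.26 and -0.23 (limma adjusted p = 0.000437, and 0.0168 without them). Its ZT16 difference was 0.11 without those 2 libraries, and its contrast was 0.34 in place of 0.49.

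The sterol genes had 8 of 26 members past this test with all mice, against 7.79% of all genes tested. Without DRF replicates 3 and 4 they had 4 of 26, against 0.448% of all genes. Insig1, Fdft1 and Msmo1 were among the 4. At ZT4 the mean of Insig1 was 65.7 ± 4.90 CPM in DRF and 98.5 ± 13.4 CPM in NRF, and at ZT16 86.2 ± 5.12 and 73.8 ± 2.47 CPM (SD, n = 4). Its difference was 0.22 at ZT16 and -0.57 at ZT4, and the contrast of 0.79 passed in both fits (limma adjusted p = 0.00047 and 0.00362). Fdft1 had 0.22 and -0.26 (limma adjusted p = 0.000893 and 0.0191). At each of the 2 time points, the mean of Insig1 and of Fdft1 was lower in the regimen that was 4 h into its food access. Both genes passed the contrast of these same values, which favours opposite signs. The median of the list was 0.08 at ZT16 and -0.20 at ZT4. Of the glucocorticoid targets, Mt2 and Arrdc2 passed in both fits, with contrasts of 0.96 and 0.75. Rbm3 had -0.78 and 0.41 (limma adjusted p = 0.00047 and 0.0191), and Ednrb had -0.45 and 0.16. Hspa1b, an inducible heat shock protein, differed by 1.63 at ZT4 and by -0.20 at ZT16 (contrast -1.83, limma adjusted p = 0.00101 and 0.0134). Gpr179, Col4a1, Bfsp2, Barhl1, Lmx1a, Lmx1b and Foxa1 also passed in both fits. For Gpr179 the NRF mean was 11.1 ± 1.27 CPM at ZT4 and 5.50 ± 0.79 CPM at ZT16, while the DRF mean was 9.08 ± 1.03 and 11.6 ± 0.85 CPM (SD, n = 4).

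**Figure D5:**
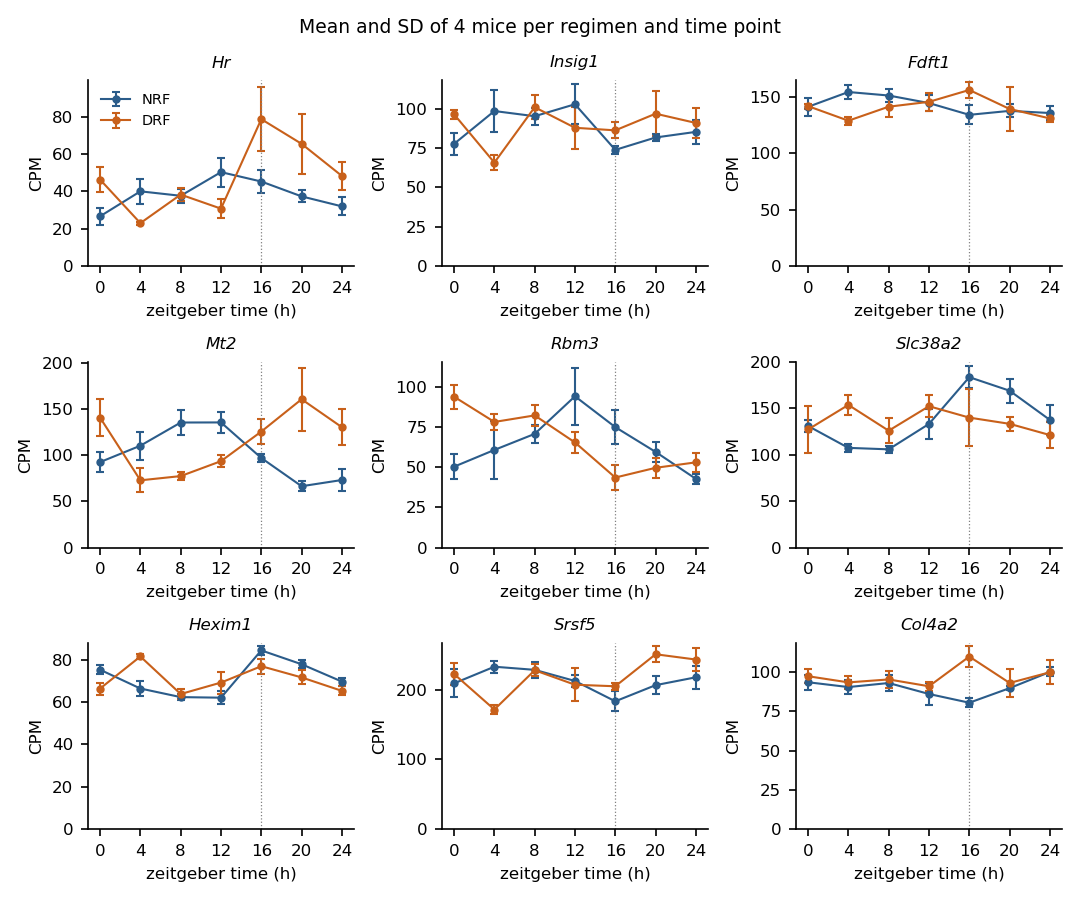
Mean and SD of CPM (y axes, from 0) over 4 mice at each time point (x axis, hours after lights on) in DRF and NRF for 9 genes, with ZT16 marked by a dotted line. At ZT4 and ZT16 the regimens are in opposite order for Hr, Insig1, Fdft1, Mt2, Rbm3, Slc38a2, Hexim1 and Srsf5, and Col4a2 differs by 0.44 on the log2 scale at ZT16 and by 0.05 at ZT4. The genes in opposite order all passed the test of ZT16 against ZT4 on these values, which favours such an order.

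Against the mean difference of the other 6 time points, 2394 genes (14.9%) differed at ZT16 with all mice, and 26 (0.162%) without DRF replicates 3 and 4, of which 21 passed in both. With all mice, 761 were higher at ZT16 and 1633 lower, and quantile normalization gave 1266 and 1204. The count with 1 library left out was 70 and 181 without DRF replicates 3 and 4, 4428 and 4199 without DRF replicates 1 and 2, and 900, 1092 and 602 without NRF replicates 2, 3 and 4. Hmgb3 (-0.41), Col4a2 (0.40), Col4a1 (0.31), Gpr179 (0.98) and Adamts2 (0.81) passed in both fits, on the log2 scale. Col4a2 was at 110 ± 6.70 CPM in DRF and 80.6 ± 2.74 CPM in NRF at ZT16 (SD, n = 4). Its contrast had a limma adjusted p of 0.00041, and of 0.0403 without DRF replicates 3 and 4. The contrast of Dbp was -0.34 with all mice (limma adjusted p = 0.0211) and -0.58 without them (limma adjusted p = 0.00911). Rbm3, with -0.95, passed with all mice (limma adjusted p = 0.00041) and missed the threshold without them (limma adjusted p = 0.0535), as did Hexa.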

How the data were processed

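RNA of the anterior hypothalamus was purified with oligo(dT) beads, and the authors aligned the reads to GRCm38.p6 and quantified them with HISAT2, Bowtie2 and RSEM, per the labels, before normalization by edgeR's TMM. The authors deposited 1 value per gene and mouse for 17564 genes, named TPM. These deposited values are treated as a score, because each is the logarithm of a CPM value plus 1, taken per unit of transcript length and scaled to a total of 999332 to 999719 per mouse. The steps were undone, which gave log2(CPM + 1) for 17369 genes, 15425 of them in whole reads. A gene was kept if its deposited value reached 1 in 80% or more of the 56 mice, which left 16077 to test. The kind of test was set for the unit found in the file. The recovered values were compared with limma 3.58.1 in R 4.3.3 (empirical Bayes with a trend, Benjamini-Hochberg adjustment over all genes, threshold 0.05), among the 8 mice at ZT16 or, for contrasts with other time points, all 56. GC content and length came from GENCODE vM21 and covered 98.9% of the genes tested. Their trends were removed with splines (5 degrees of freedom) as an alternative. The undoing of the deposited scale and the limma fits were tested on simulated reads without a GC trend. The removal of the trends was not tested in this way. Coordinates are those of GRCm38, and promoter windows are from RefSeq. The members and gene lists were chosen with earlier results of these data known. Named genes were up to 10 per direction without overlap and with a mean log2(CPM + 1) of at least 1 (by size among genes past the threshold, otherwise by p), all clock genes, the 4 members of other lists with the smallest p (2 for cell markers), the 5 smallest p in each contrast, and the 5 per direction without DRF replicates 3 and 4. Genes added after their values were seen are Barhl1, Lmx1a, Lmx1b, Foxa1, Hspa1b, Nrf1, Inhba, Fdft1, Mvd, Acaca, Snap25, Slc17a7 and Tbr1. Some list members counted here are not reported by name.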

Additional observations from a re-analysis of the deposited data

Results flagged for a closer look

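For 12 of the genes examined singly, 1 of the 4 mice of a group lay far from the other 3, as chance gives in about 1 group of 20. In DRF, 1 mouse was at 100.1 CPM for Col4a2 (the others 112 to 114), 8.66 for Plekhg4 (9.94 to 10.1), 10.6 for Ciart (13.3 to 13.8) and 7.25 for Egr3 (2.51 to 3.24). In NRF, 1 mouse was at 1.85 CPM for Nradd (the others 1.44 to 1.49), 88.3 for Clock (98.0 to 99.1), 137 for Nr1d2 (158 to 160), 82.6 for Acot11 (74.1 to 75.5) and 3.65 for Tmem212 (3.47 to 3.50). NRF replicate 1 was apart for Barhl1 at 1.46 CPM (the others 0.229 to 0.394), for Lmx1b at 2.56 (0.132 to 0.526) and for Foxa1 at 1.91 (0.0986 to 0.264).

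The DRF minus NRF difference at ZT16 differed from that at ZT4 (limma, adjusted p under 0.05 with all mice and without DRF replicates 3 and 4) by the following amounts on the log2 scale with all mice. It was larger at ZT16 by 1.53 for Hr, 1.22 for Gpr179, 0.96 for Mt2, 0.79 for Insig1, 0.75 for Arrdc2, 0.60 for Srsf5, 0.49 for Hexa, 0.48 for Fdft1 and 0.37 for Col4a1. For the transcription factors Lmx1b, Lmx1a, Barhl1 and Foxa1 it was larger by 2.31, 2.19, 2.01 and 2.01. The contrast was negative for Hspa1b (-1.83), Rbm3 (-1.18), Bfsp2 (-1.02), Slc38a2 (-0.92), Ednrb (-0.60) and Hexim1 (-0.43).

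Against the mean difference of the other 6 time points, the same 2 fits both gave a positive contrast for Gpr179 (0.98), Adamts2 (0.81), Col4a2 (0.40), Col4a1 (0.31), Lmx1a (1.83), Barhl1 (1.70) and Foxa1 (1.604). The contrast was negative for Bfsp2 (-0.50), Hmgb3 (-0.41) and Dbp (-0.34).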

How the results depend on the processing

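The counts of 0 genes in each direction at ZT16 were the same without a filter, with a stricter filter, another pseudocount, the deposited scale, quantile normalization, trends with GC content and length removed, and voom (added after seeing the data). They became 1076 higher and 2169 lower with the spread of all 56 mice, and 454 and 1423 with that spread and the trends removed (also added later). Array weights gave 66 and 92, and leaving out DRF replicates 3 and 4 with the spread of all other mice gave 18 and 15. With single mice left out, the higher count was 0 to 1 and the lower count 0. Without DRF replicates 3 and 4 the count against ZT4 was 72 and that against the other 6 time points 26. Array weights gave 596 and 214 for these. Against ZT4 there were 811 genes on the deposited scale, 37 with the mice of ZT16 and ZT4 alone, and 198 to 3376 with single mice left out. Against the other 6 time points there were 70 to 4428 with single mice left out, and 1381 with the trends removed. Same-numbered mice did not deviate together (correlations of -0.4, 0.141, -0.126 and -0.312). The GC trends of DRF replicates 3 and 4 enter these deviations, so whether the numbers pair mice cannot be told from them. The replicate block called 0 genes at ZT16 (1483 at an unadjusted p under 0.05) and 0 with the trends removed as well, and with both the count against the other 6 was 1361. Signs of small differences turned. With quantile normalization Bhlhe40 was 0.023, Ciart 0.011 and Per1 0.055, and Per1 was 0.002 on the deposited scale. Without DRF replicates 3 and 4 Clock was 0.05, Cry2 -0.112, Ogn 0.055 and Pdia3 0.051. With array weights Cry2 was -0.094 and Pdia3 0.012. With the trends removed, alone, with the spread of all 56 mice or with the replicate block, Cry2 was -0.077, Per2 -0.073 and Tshb 0.022. With single mice left out the values ran from -0.083 to 0.037 for Bhlhe40, -0.05 to 0.065 for Ciart, -0.047 to 0.066 for Cry2, -0.071 to 0.068 for Per1 and -0.027 to 0.05 for Per2. No other named gene changed direction. The cause of these changes was not tested. Of the 33 genes called without DRF replicates 3 and 4, the calls rest on 2 DRF mice.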
